A study of Mus musculus with 12 samples.

Results

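H19, Igf2 and 8 further genes of the insulin-like growth factor (IGF) axis were followed in mouse calf muscle after removal of Ank2 from the muscle fibres. The set holds 10 of the 24528 genes in the table and was named gene by gene: H19, Igf2, Igf2r, Igf1, Igf1r, Igfbp3, Igfbp4, Igfbp5, Igfbp6 and Igf2bp2. Their measured values in these libraries guided that choice, so the levels and differences of the 10 genes are given as a description, with no test. RNA came from bulk gastrocnemius of 4-month-old male mice, 6 KO and 6 WT, with 1 library per mouse. KO mice had the genotype Ank2f/f with HSA-Cre+, in which the human skeletal actin promoter drives Cre recombinase in skeletal muscle fibres. WT mice were Ank2f/f without the transgene. Both groups therefore carried the floxed alleles, and a control with Cre alone was not analysed here. Ank2 encodes ankyrin-B, an adaptor between membrane proteins and the spectrin cytoskeleton.

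The IGF axis controls muscle growth. IGF-1 and IGF-2 are secreted ligands that signal through the IGF-1 receptor and the insulin receptor, while the IGF-2 receptor carries IGF-2 to lysosomes, and the IGF-binding proteins hold the ligands in serum and tissue. H19, a long noncoding RNA, and Igf2 are neighbouring imprinted genes that compete for shared enhancers: in mouse, H19 is transcribed from the maternal chromosome and Igf2 from the paternal one. Both are high in fetal muscle and decline after birth, and H19 RNA remains detectable in adult skeletal muscle.

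Both loci also hold microRNAs, shown here because matches to them can be searched in the other genes. Their seeds, bases 2 to 8 in capitals, all differ in the RefSeq mature sequences (GRCm38.p6, minus strand). The miR-675 arms lie in an H19 exon, at chr7:142577112-142577133 for the 5p arm and chr7:142577078-142577099 for the 3p arm. The miR-483 arms lie in an Igf2 intron, at chr7:142654968-142654989 for the 5p arm and chr7:142654932-142654952 for the 3p arm.
mmu-miR-675-5p: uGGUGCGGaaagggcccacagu
mmu-miR-675-3p: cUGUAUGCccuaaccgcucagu
mmu-miR-483-5p: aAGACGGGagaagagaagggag
mmu-miR-483-3p: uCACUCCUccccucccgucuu

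The reverse complement of each seed was searched in the 3′ untranslated regions (UTRs) of the coding genes of the set. The Igf1r 3′ UTR, 7267 bases long, held GCATACA, the match to miR-675-3p, at positions 505 and 1264 from its first base. Of the 231 mouse 3′ UTRs at least as long, 39.8% held that motif within the same length. No match to miR-675-5p (CCGCACC) was in the Igf1r 3′ UTR. The Igf2 3′ UTR, 3050 bases long, held AGGAGTG, the match to the 3p arm of the microRNA in its own intron, at position 1919, as did 21.6% of 2690 UTRs at least as long. The same motif was also found once each in Igf1 (position 174), Igfbp3 (924), Igfbp5 (3512) and Igf2bp2 (105). Of the UTRs at least as long as each of these, 39.7%, 11.6%, 31.1% and 14.6% held it, in that order. A match is a string of letters and not a shown target site. The matched stretches in the main receptor and in Igf2 itself are printed with the 7 bases in capitals.
Igf1r at 505: gctcctcatcaccccGCATACAcctg
Igf1r at 1264: gaccgtgaaacatttGCATACAcatc
Igf2 at 1919: tccccagaagttctgAGGAGTGgagg

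The rows for Mir675 and Mir483 stood at the floor of the table in all 12 libraries. Poly-A libraries do not capture mature microRNAs, so those rows say nothing about their levels. The values below are therefore those of the long host transcripts.

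The libraries held an estimated 12291041 to 18718416 reads. Above the table's lowest value stood 18054 genes, counting any library, and the test covered the 12221 genes that reached 10 estimated reads in 6 or more libraries. All 10 genes of the set passed that filter. Ank2 lay at 26.3% to 44.3% of the WT mean in KO libraries and at 63.4% to 128% in WT libraries. Of 8 myofibre markers, none passed the test, and their summed scaled reads ran from 2820000 to 3430000 in KO and from 2880000 to 3770000 in WT libraries. In bulk muscle, fewer cells of a type and less RNA per cell cannot be told apart. KO 2 stood apart from the other 5 KO libraries in H19 and Igf2, and values of both genes are also given without it.

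H19 was higher in KO muscle. Its gene lies at chr7:142575529-142578143 on the minus strand of mm10, with 2460 exonic bases. The deposited log2 value had a lowest, median and highest of 12.74, 14.16 and 14.37 in KO libraries, against 12.05, 12.61 and 12.81 in WT libraries. All of the KO libraries except KO 2 lay above the highest WT library, and KO 2 lay inside the WT range. The mean was 13.88 ± 0.61 in KO and 12.49 ± 0.36 in WT (SD, n = 6 each), a difference of 1.38 (SE 0.26), or 1.61 (SE 0.17) without KO 2. Put back to scaled reads, KO muscle held 274% ± 91.5 of the WT mean (SD, n = 6), with 116% for KO 2 and a range of 216% to 362% for the rest. These values rest on 4102 to 23690 estimated reads per library.

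Igf2 moved in the same direction from a much lower level. The gene, which encodes the fetal growth ligand IGF-2, lies at chr7:142650766-142666816 on the minus strand. Its log2 value had a lowest, median and highest of 8.27, 9.30 and 9.83 in KO libraries, against 8.09, 8.35 and 8.53 in WT libraries. KO 2 again fell within the WT range, and the other 5 KO libraries lay above it. The difference was 0.90 (SE 0.21), or 1.09 (SE 0.12) without KO 2, with means of 9.23 ± 0.55 in KO and 8.33 ± 0.17 in WT (SD, n = 6 each). On scaled reads KO muscle held 229% ± 87.9 of the WT mean, with 93.6% in KO 2, 184% in KO 4 and 346% in KO 1. Each library had 169 to 974 estimated reads of Igf2.

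Igf1, the growth-hormone-driven ligand of adult muscle, differed in the other direction by less. The gene lies at chr10:87858265-87937042 on the plus strand. Its log2 value had a lowest, median and highest of 7.50, 7.94 and 8.47 in KO libraries, against 8.03, 8.30 and 8.87 in WT libraries. The groups overlapped, with 3 KO libraries below the lowest WT library. The difference was -0.40 (SE 0.17), and KO muscle held 68.8% ± 25.2 of the WT mean on scaled reads (SD, n = 6). The ratio of Igf2 to Igf1 in scaled reads per kilobase of exon was 1.99 for KO 2 and between 3.37 and 14.4 for the rest of the KO group, against 0.855 to 2.69 in WT libraries.

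**Figure D1:**
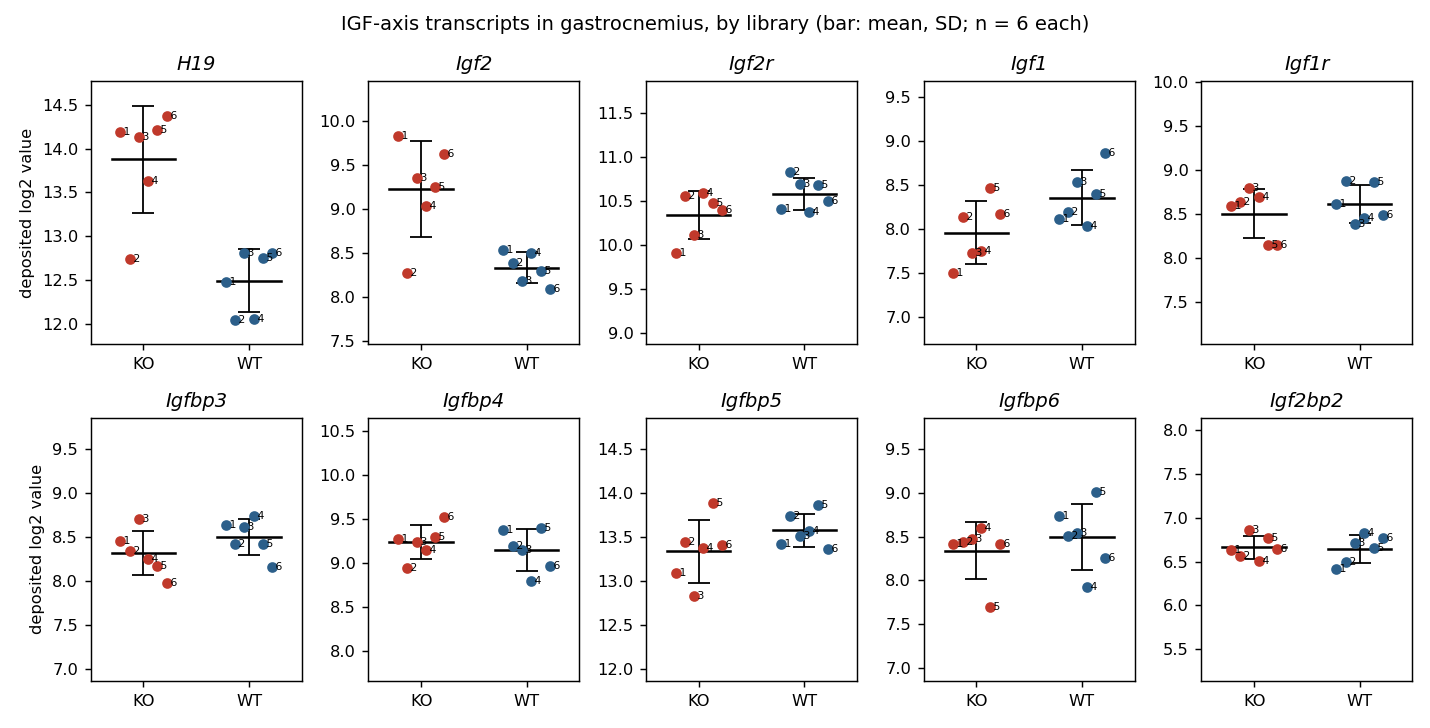
Deposited log2 value of each of the 10 genes in every library, with KO left of WT in each panel; points are single mice marked by replicate number and bars are the group mean with SD (n = 6 each). H19 and Igf2 each have 5 KO libraries above the highest WT library and KO 2 within the WT range, whereas the groups of the other genes overlap more widely.

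Neither IGF receptor differed by as much. Igf2r lies at chr17:12682406-12769664 and Igf1r at chr7:67952827-68233668, on the same chromosome as H19 and far from it. Igf2r, whose product clears IGF-2 and which is itself imprinted, averaged 10.34 ± 0.28 in KO and 10.59 ± 0.18 in WT on the log2 scale (SD, n = 6 each). The difference was -0.24 (SE 0.12), and 2 KO libraries, at 9.91 and 10.11, lay below the lowest WT library at 10.38. Igf1r, the signalling receptor for both ligands, averaged 8.50 ± 0.28 in KO and 8.61 ± 0.21 in WT, a difference of -0.11 (SE 0.12). Its KO libraries ran from 8.15 to 8.80, against 8.38 to 8.88 in WT libraries, so the groups overlapped.

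Igfbp5 was the most abundant binding protein transcript per length in both groups. Its product is secreted by differentiating muscle cells, and the gene lies at chr1:72857932-72874884. The log2 value had a lowest, median and highest of 12.83, 13.39 and 13.89 in KO libraries, against 13.36, 13.54 and 13.86 in WT libraries. The difference of -0.24 (SE 0.14) came with 2 KO libraries below and 1 above the whole WT range. Igfbp3, which encodes the main serum carrier of the IGFs, lies at chr11:7206086-7213923 and differed by -0.18 (SE 0.11), with 7.98 to 8.71 in KO and 8.16 to 8.74 in WT. Igfbp6, whose product prefers IGF-2, at chr15:102144362-102149511, ran from 7.70 to 8.60 in KO and from 7.92 to 9.01 in WT and differed by -0.15 (SE 0.18). Igfbp4, which encodes an inhibitory binding protein at chr11:99041244-99054392, ran from 8.94 to 9.52 in KO and from 8.79 to 9.40 in WT, a difference of 0.09 (SE 0.11). The differences of these 4 genes were each smaller than the SD within KO libraries, and all 4 pairs of groups overlapped.

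Bulk tissue does not give the cell source of the binding protein transcripts. Lists of markers for cells other than fibres were therefore read beside them. Of 8 markers of fibro-adipogenic progenitors and fibroblasts none passed the test, with summed scaled reads of 5780 to 9800 in KO and 4610 to 9940 in WT libraries. The marker counts stand beside 3.12% higher, 3.08% lower and 47.6% with a positive difference over all tested genes. All 7 endothelial markers had negative differences and 1 fell (Flt1, by 0.50, limma adjusted p = 0.0347), with sums of 3350 to 5120 in KO and 4140 to 5700 in WT. All 6 smooth muscle and pericyte markers had negative differences and 1 fell (Myh11, by 0.54, limma adjusted p = 0.0418), with sums of 4230 to 7410 in KO and 5980 to 8330 in WT. Of 3 tested adipocyte markers all had negative differences and 1 fell (Adipoq, by 0.34, limma adjusted p = 0.0429). Adipoq had only 3.0 to 21.1 estimated reads per library, and by limma-voom 0 adipocyte markers passed. Sums over all 5 listed adipocyte markers, tested or not, ran from 30.8 to 122 in KO and from 55.0 to 231 in WT. Flt1, Myh11 and Adipoq were named after their values were seen. Of 7 macrophage markers 6 had positive differences and none passed, with sums of 286 to 743 in KO and 216 to 776 in WT. None of the tenocyte, Schwann cell and satellite cell markers passed. None of these markers stood at the floor in every library. Their part in the values of the IGF genes was not tested.

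Igf2bp2 encodes an RNA-binding protein that binds Igf2 and other mRNAs, from chr16:22059009-22163299. It was the lowest of the set, at 15.0 to 44.2 estimated reads per library. Its log2 value was 6.66 ± 0.13 in KO and 6.65 ± 0.16 in WT (SD, n = 6 each), and the difference of 0.01 (SE 0.09) has no stable sign, running from -0.03 to 0.05 over the alternatives. Differences between such low values are compressed on this scale.

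Over all tested genes, 6.19% passed limma's test at an adjusted p of 0.05, with 3.12% higher and 3.08% lower in KO. Of the 10 genes of the set 2 passed, H19 and Igf2, both higher in KO. The set was chosen on this contrast, so nothing is read from that count. When KO 1, KO 3, KO 6, WT 1, WT 2, WT 3, WT 5 or WT 6 was left out, 1 of the 10 passed, H19. The groups did not overlap for 2.47% of all tested genes, 1.27% higher and 1.2% lower in KO, and for 0 of these 10. The median difference was -0.13 over the set and -0.009 over all tested genes.

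By mean level per length the order of the genes was the same in both groups, except that Igf2 and Igfbp3 changed places. In KO muscle the mean scaled reads per kilobase of exon were 6481 ± 2163 for H19, 1756 ± 447 for Igfbp5, 218 ± 54.7 for Igfbp6, 131 ± 25.3 for Igf2r, 117 ± 17.9 for Igfbp4, 94.8 ± 36.3 for Igf2 and 75.2 ± 17.9 for Igfbp3 (SD, n = 6). Igf1 at 17.1 ± 6.26, Igf1r at 16.7 ± 3.98 and Igf2bp2 at 3.92 ± 1.01 closed that order. In WT muscle H19 at 2365 ± 565 and Igfbp5 at 2031 ± 277 had overlapping ranges of mean and SD, which they did not in KO muscle. Igf2 stood at 41.3 ± 6.61 in WT, below Igfbp3 at 88.3 ± 15.9, whereas in KO the range of Igf2 overlapped that of Igfbp4 above it and that of Igfbp3 below it. Igf1 and Igf1r could not be told apart by their spread in either group. Among 11990 genes with an annotated length, H19 ranked 60 in KO and 191 in WT, and Igf2 ranked 3935 in KO and 6329 in WT.

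**Figure D2:**
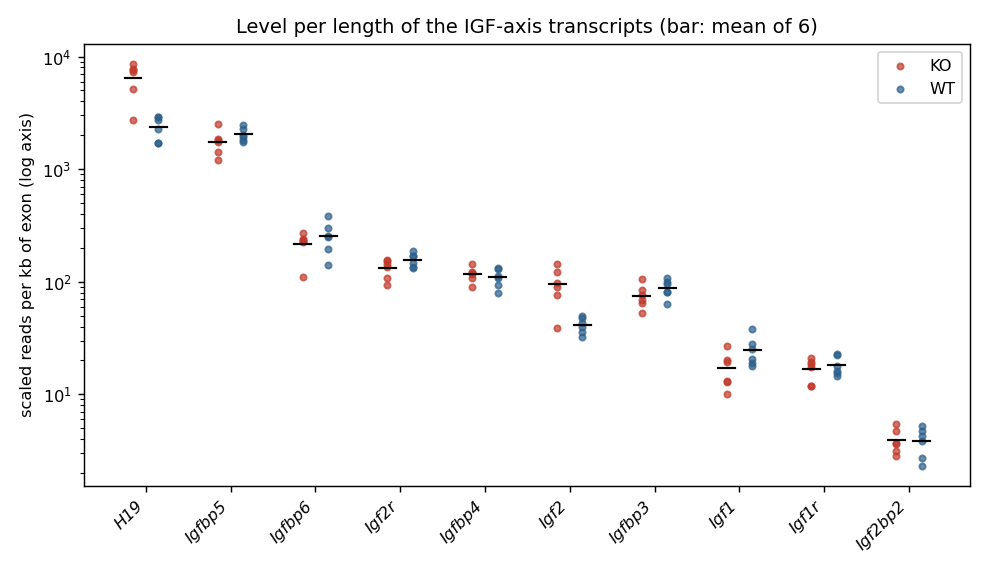
Mean scaled reads per kilobase of exon for the 10 genes on a log10 axis, KO and WT side by side, in which points are single mice and bars are the mean of 6. H19 stands at 6481 in KO and 2365 in WT, and Igf2 at 94.8 in KO and 41.3 in WT, whereas the other 8 genes differ less than these between the groups.

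H19 and Igf2 were next compared library by library, since they share enhancers. The ratio of H19 to Igf2 per kilobase ran from 52.8 to 84.6 in KO libraries and from 35.7 to 88.5 in WT libraries, so the KO values lay inside the WT range. Among the 6 KO libraries the log2 values of both genes had Pearson's r = 0.93 (exact permutation p = 0.0139, adjusted 0.0695 over 10 relations) and Spearman's rho = 0.71 (exact permutation p = 0.136, adjusted 0.272). Without KO 1 and KO 2, the libraries farthest from the median of Igf2, r was 0.89. Among the 6 WT libraries r was -0.74 (exact permutation p = 0.117, adjusted 0.167) and rho was -0.71 (exact permutation p = 0.136, adjusted 0.272), and r was -0.90 without WT 1 and WT 6. The difference between the groups in this relation was not tested, and neither correlation passed the adjustment.

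**Figure D3:**
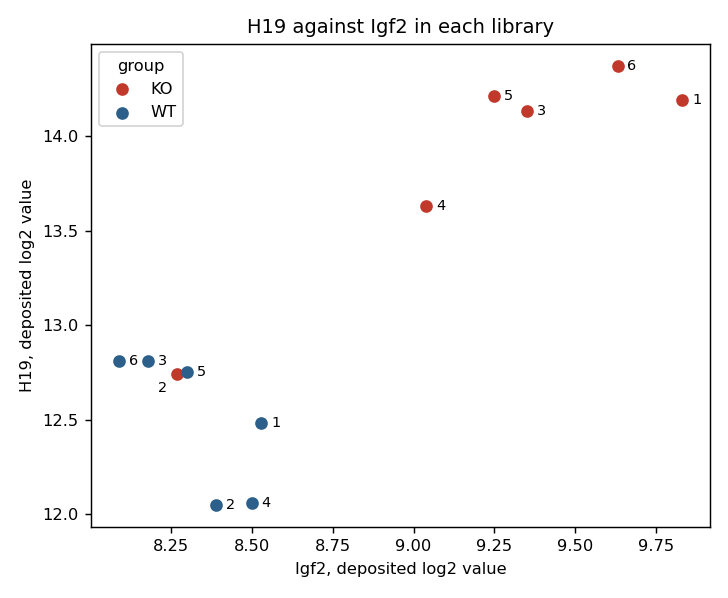
Deposited log2 value of H19 on the vertical axis against that of Igf2 on the horizontal axis, 1 point per mouse, with replicate numbers. KO libraries 1, 3, 4, 5 and 6 lie at 13.63 to 14.37 for H19 and 9.04 to 9.83 for Igf2, and KO 2 lies among the WT libraries at 12.74 and 8.27.

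The mean over genes of embryonic and regenerating fibres, in which H19 and Igf2 are known to be high, split the KO libraries likewise. The list held 15 genes, of which Chrng, Mymk, Mymx and Dlk1 were not tested. Of the 11 tested genes, 6 rose, 1 fell and 4 did not pass, beside 3.12% higher and 3.08% lower over all tested genes. Their median difference was 0.63. By limma-voom 3 rose and 1 fell, and with KO 2 left out 9 rose and 1 fell, beside 2.72% and 5.59% higher over all tested genes. Actc1, the cardiac actin of developing muscle, rose by 2.53 (limma adjusted p = 0.0437), and Chrna1, an acetylcholine receptor subunit, rose by 1.96 (limma adjusted p = 0.00713). Tnnt2, the cardiac troponin T, rose by 1.99 (limma adjusted p = 0.032), Myh8, the perinatal myosin, by 1.18 (limma adjusted p = 0.0415), Runx1 by 0.63 (limma adjusted p = 0.0402) and Ncam1 by 0.36 (limma adjusted p = 0.0232). The deposited scale compresses differences between low values. On scaled reads KO muscle held 604% ± 362 of the WT mean for Actc1, 563% ± 262 for Chrna1 and 1044% ± 784 for Tnnt2 (SD). Myh8 stood at 570% ± 318, Runx1 at 297% ± 141 and Ncam1 at 151% ± 27.2. Cdh15, the M-cadherin of satellite cells and myoblasts, fell by 0.37 (limma adjusted p = 0.0342). Myh3, the embryonic myosin, differed by 0.86 (limma adjusted p = 0.0921), Myl4 by 0.60 (limma adjusted p = 0.17) and Myod1 by 0.29 (limma adjusted p = 0.0771), and none of these passed. The mean log2 value over the 11 genes was 7.78 for KO 2 and between 8.76 and 9.06 for the rest of the KO group, against 7.73 to 7.89 in WT libraries. Single genes did not all split so. The lowest KO library lay above the highest WT library for Chrna1 (8.92 against 8.30) and Tnnt2 (7.35 against 7.17). Such a gap, higher in KO, was seen for 1.27% of all tested genes. For Actc1 the highest WT library, at 12.81, lay above the lowest KO library, at 11.36. This list was chosen with results of these libraries known and is no independent evidence.

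Within KO libraries that mean went with Igf2 at r = 0.95 (exact permutation p = 0.00417, adjusted 0.0417) and rho = 0.94 (exact permutation p = 0.0167, adjusted 0.167). KO 2 lay within the WT range for Igf2 and for that mean, so the KO to WT difference can enter through that library. Igf2 and the list were both chosen with results of these libraries known, so these p-values are a description. Without KO 1 and KO 2 r was 0.82, and on log2 scaled reads plus 1 r was 0.93 with an adjusted permutation p of 0.0695, past the threshold no longer. With H19 it gave r = 0.93 (exact permutation p = 0.0417, adjusted 0.104) and rho = 0.54 (exact permutation p = 0.297, adjusted 0.371), and r was 0.46 without KO 1 and KO 2, so this relation rests on those libraries. In WT libraries r was 0.20 for Igf2 (exact permutation p = 0.761, adjusted 0.846) with rho = 0.60 (exact permutation p = 0.242, adjusted 0.346), and 0.71 without WT 5 and WT 6. For H19 in WT libraries r was 0.09 (exact permutation p = 0.924, adjusted 0.924) with rho = -0.43 (exact permutation p = 0.419, adjusted 0.466), and -0.59 without WT 5 and WT 6.

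The level of Ank2 was set against H19 and Igf2 in the same way. In KO libraries it gave r = 0.71 with Igf2 (exact permutation p = 0.113, adjusted 0.167) and rho = 0.77 (exact permutation p = 0.103, adjusted 0.272), with r = 0.13 without KO 1 and KO 6. With H19 it gave r = 0.46 (exact permutation p = 0.388, adjusted 0.485) and rho = 0.26 (exact permutation p = 0.658, adjusted 0.658), with r = 0.05 without the same libraries. In WT libraries Ank2 gave r = -0.88 with Igf2 (exact permutation p = 0.0333, adjusted 0.104) and rho = -0.71 (exact permutation p = 0.136, adjusted 0.272), with r = -0.66 without WT 1 and WT 4. With H19 in WT it gave r = 0.80 (exact permutation p = 0.0986, adjusted 0.167) and rho = 0.66 (exact permutation p = 0.175, adjusted 0.292), with r = 0.97 without WT 1 and WT 4. None of these 4 relations passed the adjustment.

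Genes whose values followed H19 or Igf2 most closely were then ranked over 11686 genes, after the group means were removed. KO 2 lay within the WT range for both genes, so the KO to WT difference can still enter through that library. H19 had its highest correlations over the 12 libraries with Rad9a (0.93), Pde2a (0.92), Plvap (0.90), Tram1 (0.89) and Lhx6 (0.89). The differences of these 5 genes ran from -0.07 to 0.09, and none passed limma's test. Igf2 had its highest with Nthl1 (0.96), Cacnb4 (0.94), Srrm4os (0.94), Maged2 (0.92) and Nqo1 (0.92). Of these, 4 rose in KO muscle, beside 3.12% higher over all tested genes. Cacnb4, a calcium channel beta subunit, rose by 1.06 (limma adjusted p = 0.00088) and Maged2 by 1.05 (limma adjusted p = 0.0304). Nqo1, a quinone reductase, rose by 0.65 (limma adjusted p = 0.00438) and Srrm4os by 0.51 (limma adjusted p = 0.0498). Nthl1 differed by 0.28 (limma adjusted p = 0.124). Among KO libraries alone the 5 genes named for Igf2 had r of 0.95 to 0.98 with it, and among WT libraries 0.41 to 0.78. The 5 genes named for H19 had 0.88 to 0.96 in KO and 0.82 to 0.94 in WT. Each correlation is a description over libraries that share the deviation of KO 2.

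The chromosome 7 neighbourhood of H19 was read next, to see which other genes of the domain differed. Within 300 kb of the H19 start 15 other genes are in the table and 8 were tested, of which 1 rose and 0 fell, beside 3.12% higher and 3.08% lower over all tested genes. With 8 genes, a count of 1 says little about the region. That gene was Nctc1, a noncoding RNA whose transcription unit covers a muscle enhancer of the domain, at -19.5 kb from the H19 start, where negative distances run away from Igf2. Its log2 value had a lowest, median and highest of 10.75, 10.87 and 11.26 in KO libraries, against 10.18, 10.41 and 10.85 in WT libraries. It rose by 0.46 (SE 0.12, limma adjusted p = 0.035), with 10.91 ± 0.19 in KO and 10.46 ± 0.26 in WT (SD, n = 6 each), although the groups overlapped. KO 2 at 10.75 was the lowest KO library, yet without it the difference was 0.49 (limma adjusted p = 0.0179). The adjusted p ran up to 0.0888 when KO 1, KO 3, KO 6, WT 1, WT 2, WT 3, WT 5 or WT 6 was left out, with differences of 0.39 to 0.50.

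The 7 other tested neighbours did not pass. Mrpl23, a mitochondrial ribosomal protein gene and the nearest of them, differed by 0.18 (limma adjusted p = 0.284). Tnnt3, the fast troponin T, differed by 0.03 (limma adjusted p = 0.899), Tnni2, the fast troponin I, by 0.16 (limma adjusted p = 0.417), and Ifitm10 by 0.31 (limma adjusted p = 0.0887). Ctsd, a lysosomal protease gene, differed by -0.22 (limma adjusted p = 0.125), Lsp1 by 0.19 (limma adjusted p = 0.278) and Prr33 by -0.04 (limma adjusted p = 0.76). Of 17 genes tested within 1000 kb, 2 rose and 1 fell, beside the same shares. The others, named after their values were seen, were Cdkn1c, an imprinted inhibitor of the cell cycle at 883 kb, which rose by 0.62 (limma adjusted p = 0.0407), and Dusp8, a phosphatase gene at -482 kb, which fell by 0.69 (limma adjusted p = 0.0495).

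**Figure D4:**
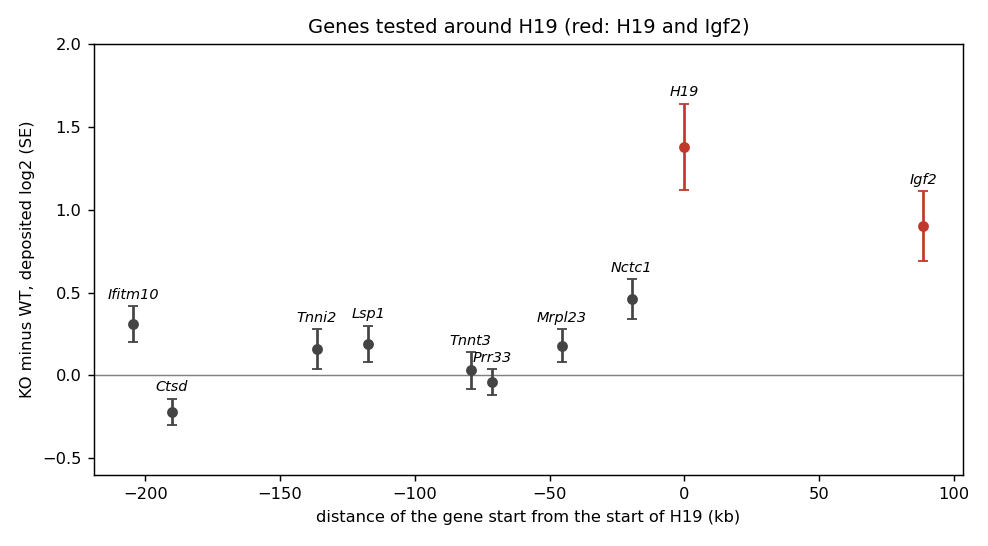
Difference of KO minus WT on the log2 scale, with its SE, for H19, Igf2 and the tested genes within 300 kb, against distance in kb from the H19 start. H19 at 1.38 and Igf2 at 0.90 stand above Nctc1 at 0.46, and the other genes lie between -0.22 and 0.31.

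Start-site windows are shown for Igf2 and Nctc1, which were both higher in KO. RefSeq gives 4 windows of 300 bases for Igf2, and the one printed, chr7:142657447-142657746 (GRCm38.p6, minus strand), holds 2 GC boxes (GGGCGG, both strands searched), a motif present at least once in 35.7% of 32851 mouse windows. It was chosen as the window with the most such matches; the other windows hold 0, 0 and 1. The Nctc1 window, chr7:142558549-142558848 on the minus strand, holds 1 E-box (CANNTG), the general motif of basic helix-loop-helix factors, and E-boxes are in 72.3% of windows. CAGCTG, the form preferred by myogenic factors, is not in this window. GC content is 63.3% in the Igf2 window and 57.3% in the Nctc1 window. Capitals mark these matches, which are letters and not shown binding sites.
Igf2: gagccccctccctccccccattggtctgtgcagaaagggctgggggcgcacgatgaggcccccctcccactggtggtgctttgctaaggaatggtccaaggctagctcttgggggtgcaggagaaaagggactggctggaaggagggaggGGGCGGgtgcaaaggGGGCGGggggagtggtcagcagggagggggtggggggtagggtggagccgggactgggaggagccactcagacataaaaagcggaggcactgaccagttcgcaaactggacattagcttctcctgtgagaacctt
Nctc1: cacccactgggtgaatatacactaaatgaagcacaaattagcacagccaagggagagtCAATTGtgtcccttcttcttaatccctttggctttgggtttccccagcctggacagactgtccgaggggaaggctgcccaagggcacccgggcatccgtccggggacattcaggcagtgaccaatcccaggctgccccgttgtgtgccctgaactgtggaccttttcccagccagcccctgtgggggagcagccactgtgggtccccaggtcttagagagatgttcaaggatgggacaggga

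Genes around the ligands were read in 6 lists of the IGF pathway with 80 genes, of which 66 were tested. None rose by limma and 5 fell, or 7.58%, beside 6.19% of all genes in either direction and 3.08% lower. At an unadjusted p of 0.05 the counts were 5 higher and 20 lower, beside 11.9% higher and 14.1% lower over all genes. By limma-voom they were 0 higher and 4 lower, beside 2.72% and 2.54%. The median difference was -0.13, with 40 of 66 negative, whereas 47.6% of all tested genes had a positive difference. With KO 2 left out, 3 rose and 10 fell, beside 5.59% and 6.82%. Without KO 3, KO 6, WT 2 or WT 5 none fell. The counts of the single lists below stand beside 3.12% higher and 3.08% lower over all tested genes.

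Receptors and proximal signalling genes numbered 17 tested, of which 1 fell. Insr, the insulin receptor, which also binds IGF-2, had a lowest, median and highest log2 value of 9.69, 10.04 and 10.40 in KO, against 10.39, 10.51 and 10.57 in WT. It fell by 0.41 (SE 0.10, limma adjusted p = 0.0324), and the groups overlapped only between 10.39 and 10.40. Pik3r1, the regulatory subunit of phosphatidylinositol 3-kinase, differed by -0.33 (limma adjusted p = 0.0791) and its catalytic partner Pik3cb by -0.27 (limma adjusted p = 0.158). Ptpn11, a phosphatase that passes receptor signals to the RAS pathway, differed by -0.45 (limma adjusted p = 0.0812). The median of the list was -0.16.

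The AKT, mTOR and FOXO branch had 23 tested genes, of which 1 fell. Rictor, a subunit of mTOR complex 2, fell by 0.38 (SE 0.09, limma adjusted p = 0.0277), with 8.42 ± 0.20 in KO and 8.80 ± 0.12 in WT (SD, n = 6 each). Differences were negative for 20 of the 23, with a median of -0.18, beside a median of -0.009 and 47.6% positive over all tested genes. Phlpp1, a phosphatase of AKT, differed by -0.31 (limma adjusted p = 0.0699). Rps6, a ribosomal protein that S6 kinase phosphorylates, differed by 0.25 (limma adjusted p = 0.0571). Its 6 KO libraries, 11.51 to 11.71, all lay above its 6 WT libraries, 11.21 to 11.49.

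Carriers, proteases and the growth hormone receptor made a list of 13, of which 8 were tested and 2 fell. Htra1, a serine protease that cuts IGF-binding proteins, fell by 0.48 (SE 0.12, limma adjusted p = 0.0312), with 8.54 ± 0.27 in KO and 9.02 ± 0.21 in WT (SD, n = 6 each). Ghr, the growth hormone receptor through which Igf1 is induced, fell by 0.43 (SE 0.13, limma adjusted p = 0.0499), with 10.95 ± 0.31 in KO and 11.39 ± 0.16 in WT. That call was lost in 17 of 21 alternatives, with adjusted p up to 0.123. Htra3, a relative of Htra1, differed by 0.28 (limma adjusted p = 0.196), Igfbp7 by 0.15 (limma adjusted p = 0.338) and Adamts1, a metalloprotease, by -0.20 (limma adjusted p = 0.38). Igfbp1, a liver product, stood at the floor in all 12 libraries, and Igfbp2, Pappa, Pappa2 and Stc1 did not pass the filter.

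Among 6 tested genes of RNA binding and processing around Igf2 and H19, 1 fell. Dicer1, the nuclease that makes mature microRNAs, fell by 0.42 (SE 0.11, limma adjusted p = 0.0375), with 9.77 ± 0.29 in KO and 10.20 ± 0.10 in WT (SD, n = 6 each). Igf2bp3, a fetal relative of Igf2bp2, differed by -0.20 (limma adjusted p = 0.128), Elavl1, which stabilises mRNAs, by -0.13 (limma adjusted p = 0.317), and Khsrp, which promotes mRNA decay, by 0.04 (limma adjusted p = 0.703). Igf2bp1, Lin28a, Lin28b and Hmga2, which are fetal genes, did not pass the filter. Leaving out KO 3, KO 6, WT 2 or WT 5 ended the calls of Insr, Rictor, Htra1, Ghr and Dicer1, and other single libraries ended some of them, with adjusted p up to 0.0794 for Insr, 0.0652 for Rictor, 0.0716 for Htra1 and 0.0926 for Dicer1.

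Imprinting control was represented by 10 tested genes, none of which passed limma's test, with 2 higher and 3 lower at an unadjusted p of 0.05, a threshold that 26% of all tested genes passed, and 0 by limma-voom. Ctcf, whose product binds the control region between H19 and Igf2, differed by -0.17 (limma adjusted p = 0.173); it was named for that role and not for its p. Tet1, an enzyme that oxidises methylated cytosine, differed by 0.36 (SE 0.11, limma adjusted p = 0.0543), with 5 of 6 KO libraries above the highest WT library and the remaining one, at 6.43, below the lowest WT library at 6.51. Its relatives Tet3 and Tet2 differed by -0.23 (limma adjusted p = 0.105) and 0.22 (limma adjusted p = 0.133). Smad1 and Smad5, reported targets of miR-675 in mouse muscle cells, differed by 0.11 (limma adjusted p = 0.392) and -0.06 (limma adjusted p = 0.703).

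**Figure D5:**
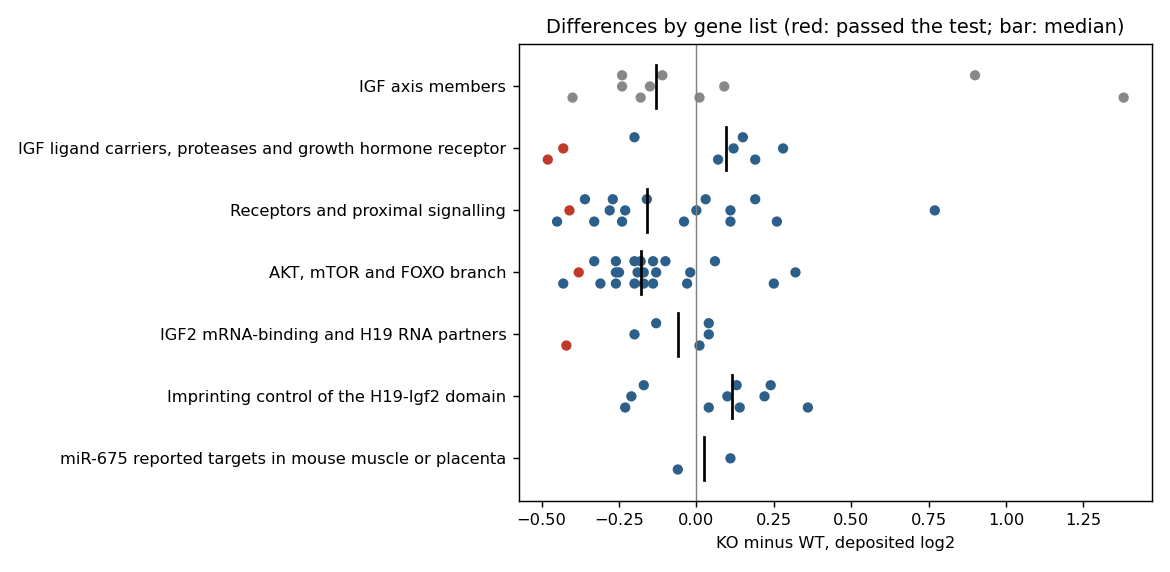
Difference of KO minus WT on the log2 scale for every tested gene of the IGF lists, 1 row per list with the set of 10 genes in grey at the top, a bar at each median, and genes past limma's test in red and the others in blue. The called genes Insr, Rictor, Htra1, Ghr and Dicer1 lie between -0.48 and -0.38.

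The counting could affect 2 genes of the set. Igf2 shares 3596 exonic bases with Gm49394, a gene model on the same strand that is not a row of the table, and 98 with Igf2os on the opposite strand, which had at most 7.0 estimated reads. H19 shares 84 bases with Mir675 and 71 and 70 with small RNA models on the opposite strand. The libraries do not mark strand, and how reads in such stretches were assigned is not given in the sources used here.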

How the data were processed

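Poly-A RNA of 12 gastrocnemius muscles was sequenced without strand marking, per the labels' protocols. The authors deposited 1 table of log2 values with a shared floor of 5.57, and fastp, STAR, featureCounts and mm10 are named in the submitters' processing notes. The transformation is not given in the sources used here. Its shape is that of a variance-stabilizing transformation, which compresses differences between low values.

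Scaled reads came from the closed-form inverse. For estimated reads, the most frequent low value of each library was taken as 1 read. It was adjusted slightly to bring the most low values near whole reads. Between 87.2% and 92.3% of low values fell within 0.1 of a whole read, a share that this adjustment itself maximised. Estimated reads served the filter, depth and levels, and intervals would cover counting error only. Genes reaching 10 estimated reads in 6 or more libraries were fitted with limma 3.58.1 (R 4.3.3) with group as the only term, a variance trend and robust moderation. Two-sided p-values received Benjamini-Hochberg adjustment over all 12221 genes, at a threshold of 0.05. The 300 kb window and 2 others, 100 and 1000 kb, were used around H19. Correlations within a group used exact two-sided permutation of pairings (scipy 1.17.1).

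The members and lists were chosen with earlier results of these data known. Named genes outside the set are every called gene of each pathway list and up to 3 others with the smallest p, the tested genes near H19, and the 5 genes most like H19 or Igf2. A gene of 1 list that this would name is not reported here. Positions are from GENCODE M21 (mm10), sequences from RefSeq (GRCm38.p6). The fit was tested on simulated data.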

Additional observations from a re-analysis of the deposited data

Results flagged for a closer look

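Igfbp6 in KO 5 had a deposited log2 value of 7.70, apart from the other 5 KO libraries at 8.41 to 8.60. The gap to its nearest neighbour was 0.792 of the group's whole range, above Dixon's 95% critical value for 6 samples. It was the only such value in 24 groups of 6 libraries tested (the 10 genes, Ank2 and Nctc1, each in KO and in WT), and chance gives about 1 in 20 groups. Without KO 5 the difference of Igfbp6 was -0.03, against -0.15 with it. H19 and Igf2 in KO 2 did not meet the same criterion.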

How the results depend on the processing

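The difference of H19 ran from 1.29 to 1.61 over 21 alternatives, and that of Igf2 from 0.77 to 1.11. Igf2 did not pass the threshold with the replicate block or without KO 1, KO 3, KO 6, WT 1, WT 2, WT 3, WT 5 or WT 6. Igf2bp2 changed sign under quantile normalization and without KO 3, KO 5, WT 1 or WT 2, with a range of -0.03 to 0.05, and no other gene of the set did.

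Leaving out each library moved the count of genes higher in KO from 381 to between 106 and 683, and of genes lower from 376 to between 88 and 833. The highest counts came without KO 2, and the lowest, 106 and 88, without KO 6. The genes of the set that passed numbered 1 to 2, the other IGF genes 0 to 3 higher and 0 to 10 lower, and the neighbours of H19 0 to 3. Of the other IGF genes, 1 was higher without trend and robust moderation, 1 with median-centred libraries and 2 with quantile normalization, and 3 neighbours passed within 1000 kb. The correlation of Igf2 with the embryonic mean in KO was 0.93 on log2 scaled reads plus 1 (exact permutation, adjusted p = 0.0695) and 0.82 without the 2 farthest libraries.

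The replicate block gave 357 genes higher and 456 lower, and 1 gene of the set. Correlations of same-numbered libraries ran from -0.36 to 0.291, and 2 KO libraries matched their own number best. Such values over all genes cannot settle whether the numbers pair the mice. With the block the SE was 0.12 for H19, against 0.26 without it, and 0.11 for Igf1, against 0.17. It stayed at 0.21 for Igf2 and was larger for Igfbp6, at 0.24 against 0.18. Low reads limit Igf2bp2 most.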
